A study of Equus caballus with 14 samples.

Results

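A group of 6 genes, out of 26740 gene identifiers counted in the series, was among the most counted genes of every embryo. They were chosen on their counts in the 5 embryo libraries: a gene was taken when it stood among the 10 most counted genes of every one of these libraries. The samples were collected 13 days after ovulation from Warmblood mares, which the study describes as undergoing a pregnant and a control cycle with the same mare as her own control. Embryos (n = 5) were flushed from the uterus of inseminated mares, and according to the methods of the study the yolk sac fluid and the capsule were removed before the embryonic tissue was stored. Pregnant endometrium (n = 5) was biopsied in the same cycles and cyclic endometrium (n = 4) was biopsied in cycles in which the mare was left unbred. All mares received hCG before ovulation, and semen of 1 stallion was used for every insemination. The cyclic biopsy of mare 5 was not sequenced because of low quality. The sample labels give replicate numbers and name no mare. Samples of the same number were taken to come from the same mare, which is an assumption.

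At this stage the horse conceptus is a spherical vesicle of trophectoderm with an inner layer of yolk sac endoderm, enclosed by a glycoprotein capsule, and it moves freely through the uterine lumen. The endometrial biopsy is a mixture of luminal and glandular epithelium, stroma, vessels and immune cells. In such mixed tissues a sequencing library samples all messenger RNA at once, so that a gene with many reads reduces the share left for every other gene. Both of these scales are therefore used here: the share of all counts of a library, and the level, in counts per 1000000 (CPM) of the counts outside the 6 genes. In bulk samples, fewer cells of a type and less RNA per cell cannot be told apart.

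The 6 genes were ENSECAG00000027689, ENSECAG00000027671, ENSECAG00000027672, ENSECAG00000027692, ENSECAG00000027669 and ENSECAG00000024680. The files give identifiers without symbols, and 0 of the 26740 identifiers were found in the available name table, so neither the function of the 6 genes nor any marker gene of trophectoderm, endoderm or endometrium could be looked up. Transcript lengths were not used here, so an order among the genes is an order of reads and not of transcript numbers. Of the 6 identifiers, 5 lie within a run of 24 identifiers in the files, from ENSECAG00000027669 to ENSECAG00000027692. The other 19 identifiers of that run took between 2.29% and 16.2% of the counts of an embryo. In an endometrium library they took between 0.225% and 0.889%. Counted in each of the 14 libraries separately, 12 of the 24 had fewer than 10 counts. Whether these were the same identifiers in every library was not checked. This run was looked at after the values had been seen.

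Libraries held between 21.8 and 46.9 M counts (M stands for 1000000) in endometrium and 44.6, 23.5, 50.8, 239.8 and 25.9 M counts in embryos 1 to 5. Embryo 1 stood apart: 4584 genes had at least 10 counts in it, against 12488 to 14340 in the other embryos, and results below that rest on it are also given without it. At these depths the 95% Wilson interval of any share of 1 gene extended at most 0.0133 percentage points to either side, which covers counting error only.

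Summed over the 6 genes, the share of the library was 74.5%, 27.8%, 11.4%, 12.5% and 22.7% in embryos 1 to 5. In cyclic endometrium 1 to 4 they took 1.99%, 4.29%, 0.952% and 1.62%, and in pregnant endometrium 1 to 5 they took 2.04%, 3.13%, 1.37%, 2.47% and 2.87%. The lowest embryo thus lay above the highest endometrium sample, while cyclic and pregnant endometrium overlapped. Per 100 counts outside the group there were 292 counts of the 6 genes in embryo 1. The number lay between 12.9 and 38.5 in embryos 2 to 5, and between 0.961 and 4.48 in endometrium. In embryo 1 the 6 genes therefore outweighed all other genes, which were left with 11.4 M counts. These include the other 19 identifiers of the run named above, with 16.2% of all counts of embryo 1. In endometrium those 19 took between 0.225% and 0.889%. The denominator of the level thus differs in make-up between embryo 1 and endometrium.

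**Figure D1:**
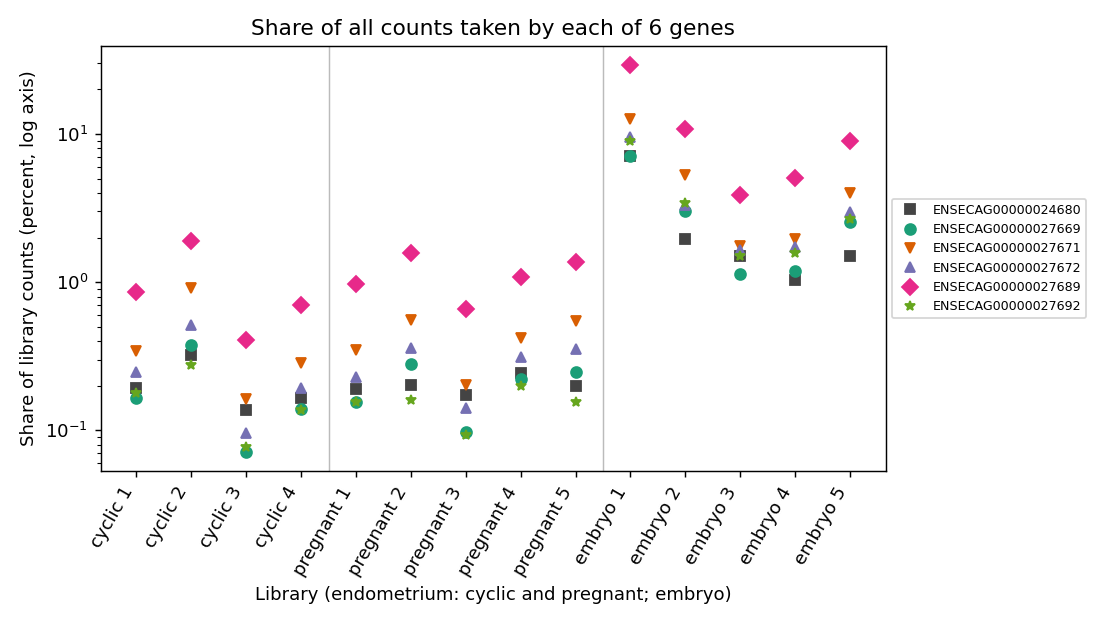
Share of all library counts (percent, log axis) for each of the 6 genes in the 4 cyclic endometrium, 5 pregnant endometrium and 5 embryo libraries, with 1 point per gene and library. All points of embryo 1 lie between 7.07% and 29.1%, and ENSECAG00000027689 is the highest point of every library.

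ENSECAG00000027689 was the most counted gene of all 5 embryos. It had 12957728, 2534769, 1967692, 12006472 and 2323938 counts in embryos 1 to 5, which was 29.1%, 10.8%, 3.87%, 5.01% and 8.99% of the library. In cyclic endometrium 1 to 4 its share was 0.862%, 1.88%, 0.407% and 0.701%, and in pregnant endometrium 1 to 5 it was 0.966%, 1.57%, 0.659%, 1.08% and 1.36%. It was also abundant in the endometrium, where it ranked between 1 and 5 in the 9 libraries with a median rank of 3. Its high rank was thus shared by both tissues, whereas its share was not.

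ENSECAG00000027671 ranked 2 or 3 in every embryo. Its share was 12.6%, 5.30%, 1.75%, 1.95% and 4.02% in embryos 1 to 5, and it ranged from 0.162% in cyclic endometrium 3 to 0.907% in cyclic endometrium 2, with a median of 0.347% over the 9 endometrium samples. Its rank in endometrium lay between 4 and 33. ENSECAG00000027672 ranked 3 or 4 in every embryo with 9.56%, 3.34%, 1.64%, 1.73% and 2.96% of the counts, and its endometrial share ranged from 0.0962% to 0.515% with a median of 0.248%. Its endometrial rank lay between 7 and 93. Both genes had their lowest endometrial share and rank in cyclic endometrium 3 and their highest share in cyclic endometrium 2.

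ENSECAG00000027692 ranked between 3 and 5 in embryos, with shares of 9.03%, 3.41%, 1.50%, 1.58% and 2.68% in embryos 1 to 5. In cyclic endometrium 1 to 4 it took 0.180%, 0.278%, 0.0770% and 0.136% of the counts, and in pregnant endometrium 1 to 5 it took 0.155%, 0.161%, 0.0934%, 0.199% and 0.156%. Among the 6 genes it had the lowest median rank in endometrium, 37, with a range from 17 to 126. It was thus among the 5 most counted genes of every embryo and outside the 10 most counted genes of every endometrium sample.

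ENSECAG00000027669 and ENSECAG00000024680 lay just inside the limit of the choice, each with a lowest embryo rank of 9. The share of ENSECAG00000027669 was 7.11%, 3.00%, 1.14%, 1.19% and 2.53% in embryos 1 to 5 and from 0.0718% to 0.379% in endometrium, where its rank lay between 11 and 140. The share of ENSECAG00000024680 was 7.07%, 1.95%, 1.50%, 1.04% and 1.51% in embryos 1 to 5 and from 0.138% to 0.325% in endometrium, where its rank lay between 14 and 45. ENSECAG00000024680 was the steadiest of the 6 genes in endometrium, with a highest level 2.44 times the lowest, against 3.74 to 5.79 times for the other 5 genes.

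**Figure D2:**
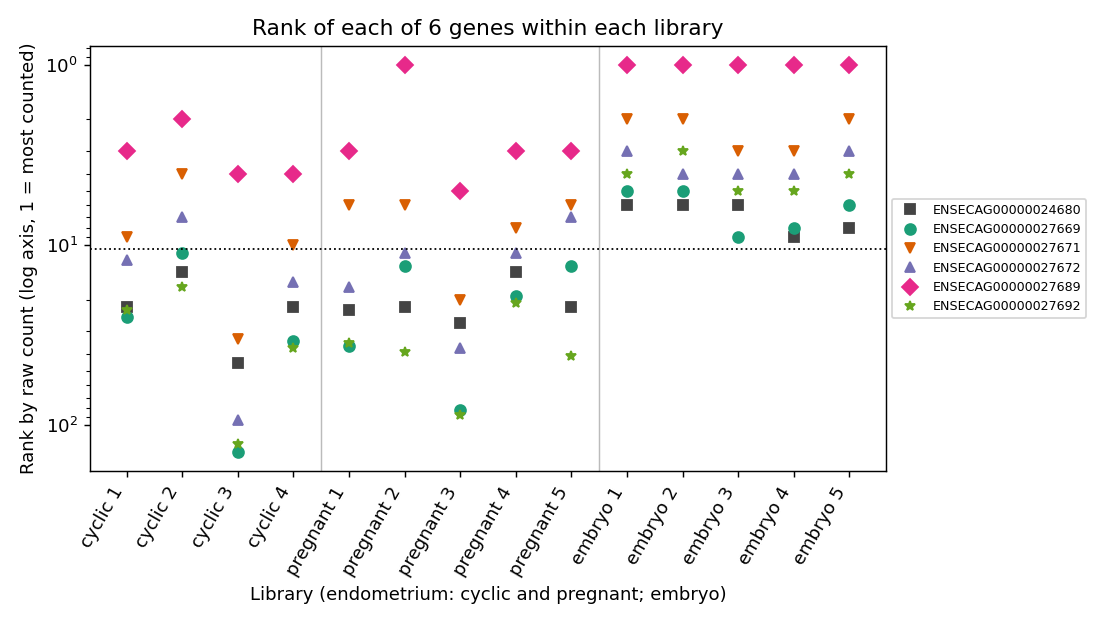
Rank by raw count (log axis, 1 is the most counted gene) of the 6 genes in each of the 14 libraries, with a dotted line below rank 10. All 6 genes lie above the line in the 5 embryos, and between 1 and 3 of them lie above it in the endometrium libraries.

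Just outside the limit stood ENSECAG00000027684 and ENSECAG00000027675, each with a lowest embryo rank of 11 and among the 10 most counted genes of 4 embryos. The share of ENSECAG00000027684 was 4.96%, 1.62%, 0.689%, 0.735% and 1.59% in embryos 1 to 5, and that of ENSECAG00000027675 was 5.00%, 1.71%, 0.847%, 0.675% and 1.33%. In all, 3 genes were among the 10 most counted genes of exactly 4 embryos. The third of them ranked 18, 8, 2, 2 and 5 in embryos 1 to 5, but between 7726 and 13424 in endometrium, whereas the lowest endometrial rank of any of the 6 genes was 140. The ranks of ENSECAG00000027675 in endometrium lay between 16 and 121 and those of ENSECAG00000027684 between 20 and 201, so that these genes were like the 6 genes in this respect and the third gene, singled out after its values were seen, was not.

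The level on counts outside the group was then set side by side for embryos and endometrium. Because the embryo libraries chose the genes, these values are a description and no test was made. For ENSECAG00000027689 the level was 1140111, 149365, 43734, 57230 and 116238 CPM in embryos 1 to 5, against 8792, 19679, 4110 and 7123 CPM in cyclic endometrium 1 to 4 and 9863, 16227, 6679, 11042 and 14000 CPM in pregnant endometrium 1 to 5. The ratio of the embryo median to the endometrium median was 11.8. For ENSECAG00000027692 the level was 354199, 47204, 16922, 18087 and 34688 CPM in embryos 1 to 5, against a lowest, median and highest endometrial level of 777, 1607 and 2903 CPM, with a ratio of medians of 21.6. These genes had the second lowest and the highest of the 6 ratios.

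For ENSECAG00000027669 the level was 278813, 41550, 12887, 13648 and 32733 CPM in embryos 1 to 5, against a lowest, median and highest endometrial level of 725, 1699 and 3957 CPM. For ENSECAG00000027672 it was 374961, 46224, 18522, 19799 and 38330 CPM in embryos, against 971, 2535 and 5377 CPM in endometrium. The ratios of medians were 19.3 and 15.1, and for both genes embryo 3 was the lowest embryo. For ENSECAG00000027671 the level was 495840, 73391, 19763, 22329 and 51954 CPM in embryos 1 to 5, against 1637, 3541 and 9474 CPM in endometrium. For ENSECAG00000024680 it was 277248, 27027, 16921, 11914 and 19549 CPM in embryos, against 1390, 1966 and 3392 CPM in endometrium. The ratios of medians were 14.7 and 9.94, and ENSECAG00000024680 was the gene with the lowest ratio and the 1 gene of the group that was lowest in embryo 4 in place of embryo 3.

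For all 6 genes the lowest embryo lay above the highest endometrium sample, by a factor of 2.09 for ENSECAG00000027671 up to 5.83 for ENSECAG00000027692. Of all 12412 genes over 4 CPM in at least 4 libraries, 2.30% had every embryo above every endometrium sample on this scale, and 17.9% did so when embryo 1 was left out. These figures are given as background, since the same embryo values chose the 6 genes. Without embryo 1 the ratios of medians lay between 8.79 and 16.4. Library sizes were also scaled with TMM factors, under which embryo 1 had a factor of 0.0368 and the other libraries at least 0.729. The ratios over all embryos were then 1.60 to 1.72 times as large as those over all embryos on counts outside the group. They lay between 16.2 and 35.1, or between 14.3 and 27.2 without embryo 1. On all counts the ratios over all embryos lay between 7.84 and 17.2, or between 7.24 and 13.7 without embryo 1. The share of all genes without overlap was 0.999% on all counts, 6.07% on counts outside the 10 most counted genes of each embryo and 14.3% with TMM factors.

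**Figure D3:**
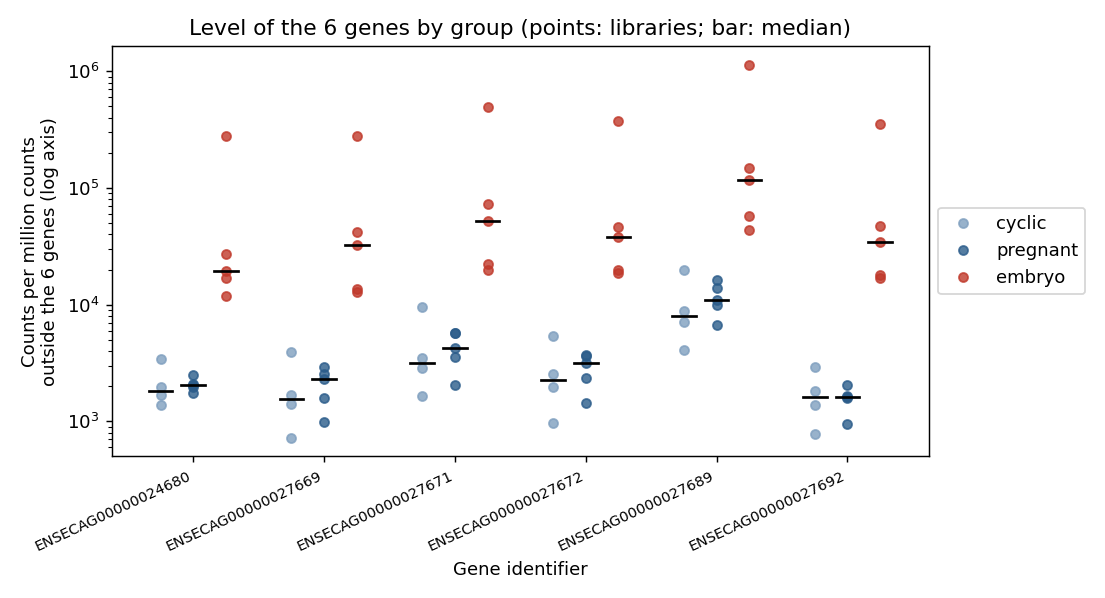
Level of the 6 genes in counts per 1000000 counts outside the group (log axis), with 1 point per library and a bar at the median of cyclic endometrium (n = 4), pregnant endometrium (n = 5) and embryos (n = 5). For each gene every embryo lies above every endometrium sample, and embryo 1 lies between 6.71 and 10.3 times above the next embryo.

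Each embryo was also set against the pregnant endometrium of the same number, for the size of the ratio only, since its direction follows from the groups that do not overlap. For pair 1 the ratio of levels was between 116 and 224. In the other pairs it lay between 4.76, for ENSECAG00000024680 in pair 4, and 28.4, for ENSECAG00000027692 in pair 2. The ratio was lowest in pair 4 for all 6 genes. For ENSECAG00000027689 it was 116, 9.20, 6.55, 5.18 and 8.30 in pairs 1 to 5, and for ENSECAG00000027692 it was 224, 28.4, 17.9, 8.85 and 21.6. ENSECAG00000027692 thus had the higher ratio of these genes in every pair.

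The spread among embryos was wide. With embryo 1 the highest embryo level exceeded the lowest by between 20.2 times (ENSECAG00000027672) and 26.1 times (ENSECAG00000027689), and in embryos 2 to 5 by between 2.27 times (ENSECAG00000024680) and 3.71 times (ENSECAG00000027671). Embryos 2 and 5, with 23.5 and 25.9 M counts, had a higher total share of the 6 genes than embryos 3 and 4, with 50.8 and 239.8 M counts, whereas embryo 1, with 44.6 M counts, had the highest share of all. In the 9 endometrium samples the total share was highest, at 4.29%, in the shallowest library, cyclic endometrium 2 (21.8 M counts), and lay between 0.952% and 1.62% in the 3 libraries with 43.1 M counts or more. Over these 9 samples Pearson's r of total share and total counts was -0.84. It was -0.59 in the 7 samples left without cyclic endometrium 2 and 4, the libraries farthest from the median depth. The samples come from 5 mares and are not independent, so these values are a description and no p is given. The cause of this relation was not tested.

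The proportions among the 6 genes need no library size and were therefore followed separately, again as a description. They sum to the whole of the group, so a larger part of 1 gene leaves less for the others. ENSECAG00000027692 made up 12.4 ± 0.511% (SD, n = 5) of the counts of the group in embryos and 7.23 ± 1.35% (SD, n = 9) in endometrium, and the values did not overlap, with 11.8% to 13.1% in embryos and 5.15% to 9.03% in endometrium. ENSECAG00000027669 likewise made up more of the group in embryos, with 10.2 ± 0.735% (SD, n = 5) against 8.30 ± 0.700% (SD, n = 9) and no overlap. ENSECAG00000027689 made up less, with 38.3 ± 2.46% (SD, n = 5) in embryos against 45.5 ± 2.71% (SD, n = 9) in endometrium and no overlap. The proportions of ENSECAG00000027671, ENSECAG00000027672 and ENSECAG00000024680 overlapped between the tissues. Embryo 1 was not set apart on this measure: its proportions lay within the range of the other embryos for all 6 genes.

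**Figure D4:**
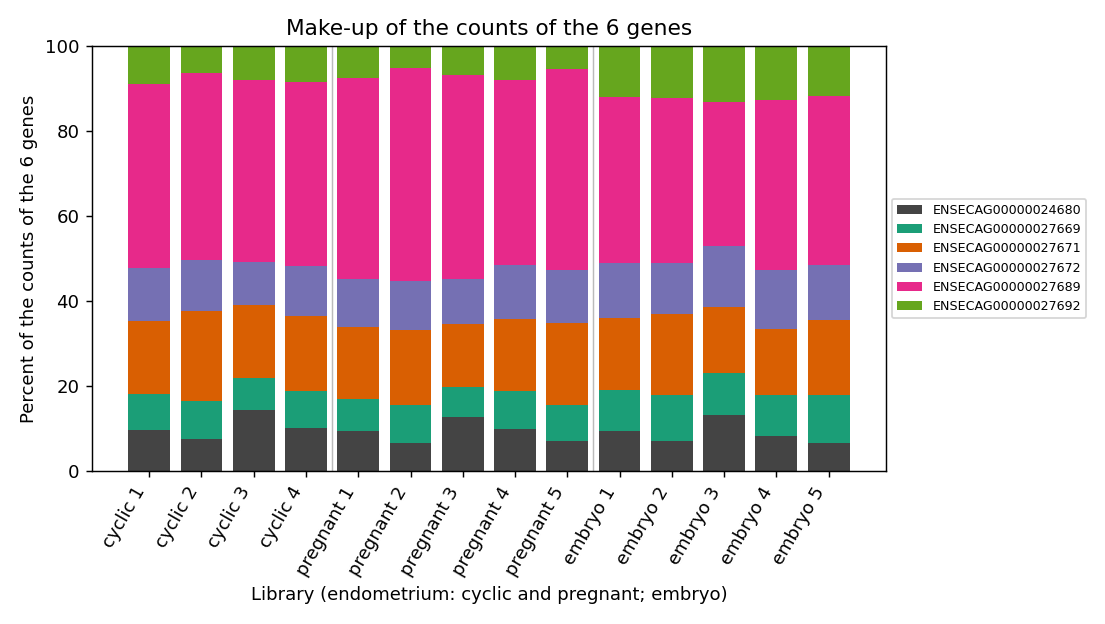
Make-up of the counts of the 6 genes (percent of their summed counts, stacked bars from 0 to 100) in each of the 14 libraries. The segment of ENSECAG00000027692 takes 11.8% to 13.1% in embryos and 5.15% to 9.03% in endometrium, although the summed counts behind the bars range from 0.952% to 74.5% of a library.

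ENSECAG00000027689 and ENSECAG00000027692 were then set against each other, since their proportions lay on opposite sides between the tissues. Their count ratio was 3.22, 3.16, 2.58, 3.16 and 3.35 in embryos 1 to 5. It was 4.79, 6.78, 5.29 and 5.14 in cyclic endometrium 1 to 4 and 6.24, 9.75, 7.06, 5.40 and 8.71 in pregnant endometrium 1 to 5. The embryos were thus close together and below all endometrium samples, and in all 4 mares with both biopsies the ratio was higher in the pregnant than in the cyclic sample.

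Among the 10 pairs without ENSECAG00000024680 the SD of the log2 count ratio over the 5 embryos lay between 0.07 and 0.23, and among the 5 pairs with ENSECAG00000024680 it lay between 0.33 and 0.50. Without embryo 1 these ranges were 0.083 to 0.26 and 0.36 to 0.57. The closest pair in embryos was ENSECAG00000027672 and ENSECAG00000027692, with count ratios between 0.979 and 1.10, although their ratio in endometrium ranged from 1.25 to 2.27. Over the 9 endometrium samples Pearson's r of log2 levels was between 0.87 and 1.00 for the 10 pairs and between 0.87 and 0.92 for the 5 pairs with ENSECAG00000024680. These correlations share libraries and depth, and are a description.

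Among 4351 other genes with at least 10 counts in all 14 libraries, the gene whose log2 level was most like that of a gene of the group was ENSECAG00000027684 for 4 of the 6 genes (Pearson's r from 0.996 to 0.998 over 14 samples). For ENSECAG00000024680 it was ENSECAG00000027675 (r = 0.995). For ENSECAG00000027692 it was a gene that was in no embryo among the 10 most counted (r = 0.994). The wide gap between embryos and endometrium, and between embryo 1 and the rest, enters each of these values. Without embryo 1 (13 samples) the values for the same pairs of genes lay between 0.989 and 0.997. The median level of ENSECAG00000027684 was 20521 CPM in embryos and 1338 CPM in endometrium. That of ENSECAG00000027675 was 17179 and 1510 CPM, so the gap between the tissues is not particular to the 6 genes. Both identifiers lie within the run of 24 identifiers named above.

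Pregnant and cyclic biopsies of the same mare were set against each other to ask whether the presence of an embryo went with a change of the 6 genes in the endometrium. This comparison uses no embryo library. With thresholds of 0.05 for the adjusted p and 2-fold for the change, edgeR's likelihood ratio test called none of the 6 genes, against 1.79% of the 11892 genes tested (213 genes). None of the 6 had an unadjusted p under 0.05 in this edgeR test, against 1341 of the 11892 genes. DESeq2 also called none of the 6, and it called 1.99% of all genes (237 genes). The quasi-likelihood test of edgeR called none of the 6 either, but it called 1 gene in all (0.00841%). At shares this low over all genes, none called is what most sets of 6 genes would give. The counts from each of these tests therefore do not set the 6 genes apart from other genes. All 6 genes passed the filter of 4 CPM in at least 4 samples. The cyclic and pregnant values of all 6 overlapped. The share of all genes with such an overlap was not computed, so nothing about the 6 genes is drawn from it.

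The log2 change of ENSECAG00000027689 was 0.28 (SE 0.27, 95% interval -0.24 to 0.81, adjusted p = 0.837 in this edgeR test), and it was higher in pregnancy in 3 of 4 mares. Its TMM-scaled level averaged 10052 ± 7481 CPM over the 4 cyclic samples (SD, n = 4) and 11239 ± 3603 CPM over the 5 pregnant samples (SD, n = 5). For ENSECAG00000027692 the log2 change was -0.06 (SE 0.30, 95% interval -0.65 to 0.52, adjusted p = 0.975 in the same edgeR test), with 2 of 4 mares higher. The other 4 genes had log2 changes between 0.03 and 0.14 and adjusted p between 0.949 and 0.986 by edgeR. The intervals of all 6 genes stayed within a 2-fold change in either direction.

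**Figure D5:**
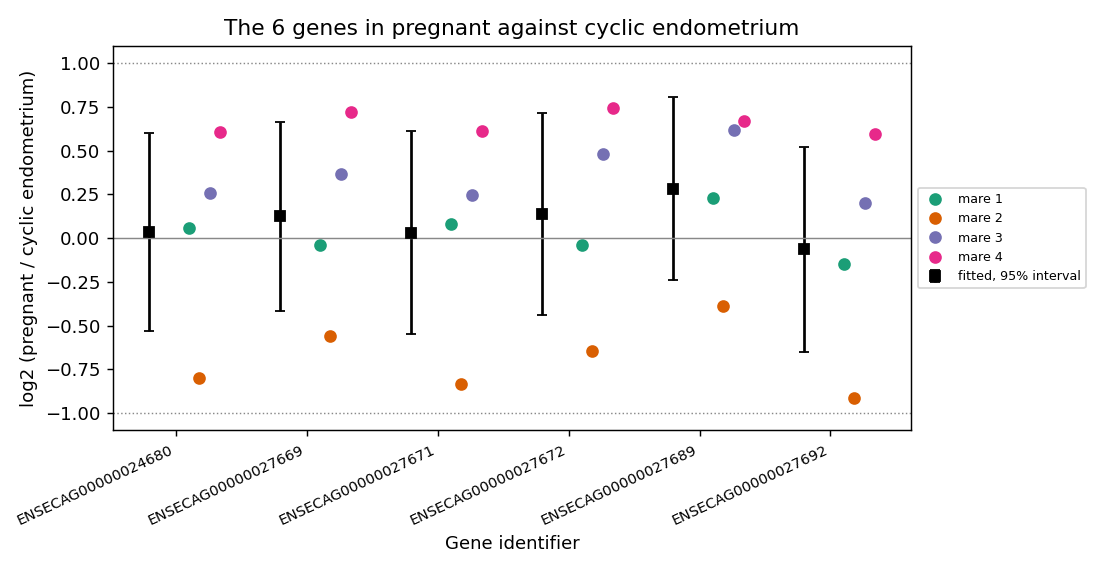
Change of the 6 genes in pregnant against cyclic endometrium (log2 ratio), with the fitted value and its 95% interval as a square and the ratio of TMM-scaled CPM in each of 4 mares as coloured points; dotted lines mark a 2-fold change. Mare 2 lies below 0 and mares 3 and 4 lie above 0 for all 6 genes.

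The 4 mares differed in direction, and in mares 2, 3 and 4 all 6 genes lay on the same side. In mare 2 the pregnant level was between 0.531 and 0.763 times the cyclic level for all 6 genes, and in mare 4 it was between 1.51 and 1.67 times. In mare 3 it was between 1.15 and 1.53 times, and in mare 1 between 0.902 and 1.17 times. Mare 2 was the mare with the shallowest cyclic library. Without mare 2 all 6 log2 changes were above 0, from 0.23 to 0.52. ENSECAG00000027689 then had an unadjusted p of 0.0247 and the smallest adjusted p, 0.483, in edgeR. None of the 6 genes was called, against 157 of 11725 genes. Without mare 4 the log2 changes of ENSECAG00000024680, ENSECAG00000027669, ENSECAG00000027671 and ENSECAG00000027672 were below 0, from -0.16 to -0.066.

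Within the group, the proportions differed in 1 direction between cyclic and pregnant samples of a mare for 4 genes. ENSECAG00000027689 made up more of the group in pregnancy in 4 of 4 mares, with 43.3 ± 0.484% (SD, n = 4) in cyclic and 47.3 ± 2.39% (SD, n = 5) in pregnant endometrium. ENSECAG00000027692 made up less in 4 of 4 mares, with 8.01 ± 1.09% (SD, n = 4) against 6.61 ± 1.28% (SD, n = 5), and ENSECAG00000027671 and ENSECAG00000024680 also made up less in 4 of 4 mares. The cyclic and pregnant values of these 4 proportions overlapped. This was seen after the values had been examined and was not tested.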

How the data were processed

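The authors deposited raw read counts per Ensembl gene for each sample, which were analysed without change. Single reads of a directional library were, as the study's methods state, trimmed with cutadapt 1.11, mapped to EquCab with CLC Genomics Workbench and counted on Ensembl genes. The use of strand and of reads that map to several genes is not given in the sources used here, so counts of near-identical or overlapping genes are uncertain. Total counts ranged from 21.8 to 239.8 M per library. Wilson intervals (95%) and the floor of 3 counts (0.0143 to 0.264 CPM outside the group) cover counting error only.

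The 6 genes, the lists and the tests were chosen with earlier results of these data known. Genes were ranked within each library by raw count, and shares and levels were computed in Python 3.11.15. Named were the 6 genes, the genes just outside the limit and the most alike genes, with at most 2 identifiers outside the group. One gene was left out by name and is not reported here. Lists of marker genes and of abundant gene classes could not be applied without symbols. No 2 libraries agreed within sampling noise (smallest chi-square of 91 pairs, 60.6 per degree of freedom).

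Pregnant and cyclic endometrium were compared in R 4.3.3 with edgeR 4.0.16, using TMM factors, genes over 4 CPM in at least 4 samples, and the likelihood ratio test with Benjamini-Hochberg adjustment over all genes tested, with the test and thresholds that the study states. The replicate number was taken as the mare and used as a block, since the study pairs samples of the same mare. The labels name no mare, so this match is an assumption. Samples of the same number deviated together with a mean correlation of 0.337 (lowest 0.085, highest 0.573). The mean for different numbers, -0.11, follows largely from centring each gene within its group and is no separate evidence. Mare 5 lacked a cyclic sample, so its pregnant sample entered the filter and scaling but not the contrast. Standard errors were derived from the log2 change and its likelihood ratio statistic. Alternatives were the quasi-likelihood test, no block, DESeq2 1.42.0, other scalings and filters, and the omission of each replicate. The tests were also run on simulated data with 200 changed genes. Those counts were drawn from the means and dispersions that edgeR fitted to these data. The outcome is not given here, and no support for the tests is taken from it.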

Additional observations from a re-analysis of the deposited data

Results flagged for a closer look

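In 57 sets of values (share, level and proportion of each of the 6 genes, and their total share, in each of the 3 groups) the gap between each extreme sample and the next was set against the whole range. In 13 sets such a sample lay far from the others, where chance gives about 2.85. Sets from 1 library share its counts, so they are not independent.

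Embryo 1 accounted for 11 of the 13. Its total share of the 6 genes was 74.5%, against 27.8% in the next embryo. Its share was far above the other embryos for ENSECAG00000027689 (29.1%), ENSECAG00000027672 (9.56%), ENSECAG00000027692 (9.03%) and ENSECAG00000024680 (7.07%). Its level was far above them for all 6 genes, with 1140111 CPM for ENSECAG00000027689, 495840 CPM for ENSECAG00000027671, 374961 CPM for ENSECAG00000027672, 354199 CPM for ENSECAG00000027692, 278813 CPM for ENSECAG00000027669 and 277248 CPM for ENSECAG00000024680.

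In embryo 3, ENSECAG00000027689 made up 34.0% of the counts of the group, against 38.8% in the next embryo. In cyclic endometrium 2, ENSECAG00000027671 made up 21.2% of the counts of the group, against 17.5% in the next cyclic sample.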

How the results depend on the processing

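Of the 6 genes, 4 were among the 5 most counted genes of every embryo. There were 9 genes among the 10 most counted in at least 4 embryos, 6 or 7 when an embryo was omitted and 11 among the 20 most counted, and these looser rules hold all 6 genes by construction. Embryo 1 sets the spread of the embryos (SD 25.9 percentage points for the total share), so a change within that spread is a weak criterion. The ratios of medians lay between 7.24 and 35.1 under the alternatives, with the largest shift under TMM factors. The 6 genes did not overlap between embryos and endometrium under 3 other denominators, added after the data were seen, under which 0.999%, 6.07% and 14.3% of all genes did not overlap. Between pregnant and cyclic endometrium, none of the 6 genes was called under any of 14 alternatives, with adjusted p from 0.483 to 1. With so few of all genes called, this does not set the 6 genes apart. Of 84 log2 changes, 11 turned in direction, all without a call. Without the replicate block ENSECAG00000024680 had -0.073 and ENSECAG00000027671 -0.10, and in the joint fit of 14 samples -0.065 and -0.099. Omission of a replicate gave from -0.16 to 0.32 for ENSECAG00000024680, from -0.075 to 0.37 for ENSECAG00000027669, from -0.16 to 0.33 for ENSECAG00000027671, from -0.066 to 0.41 for ENSECAG00000027672 and from -0.29 to 0.23 for ENSECAG00000027692. Of all genes, 213 were called, against 1 by edgeR's quasi-likelihood test under the same replicate block (1354 at an unadjusted p under 0.05) and 45 in the joint fit. Omission of a replicate gave from 133 (without mare 3) to 455 (without mare 1) genes. The cause was not tested. The block changed no call of the 6 genes, since 179 genes but none of the 6 were called without the replicate block. The smallest count of any of the 6 genes was 30949, so none was near the floor of 3 counts. The relation of their total share to depth in endometrium is given above as a description, and what lies behind it was not tested.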
